A study of Mus musculus with 8 samples.

Results

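*Lingo3*, *Rp1*, *Lmntd1*, *Smco1* and *Uckl1os* are 5 genes about which little is known in the heart. Their transcripts were almost lost from the hearts of mice with a muscle-directed knockout of *Rnaseh1*, the gene of RNase H1. They were picked by the size of their fall in the knockout, out of 54508 genes listed, of which 17046 had a mean of at least 10 normalised counts over the 8 libraries and could be tested. A normalised count is the number of read pairs of a gene in a library divided by a size factor of that library. Because the difference between the genotypes chose these genes, it is given below as a description without a test. *Lingo3* encodes a membrane protein with leucine-rich repeats and an immunoglobulin domain, of a family best known from the nervous system, where its relative LINGO1 takes part in Nogo receptor signalling. *Smco1* encodes a predicted single-pass membrane protein with coiled coils. *Rp1* encodes a doublecortin-domain protein of the photoreceptor axoneme, and its human counterpart is mutated in retinitis pigmentosa. *Lmntd1* encodes a protein with the tail domain found in nuclear lamins, and *Uckl1os* is an RNA transcribed from the strand opposite to *Uckl1*.

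Total RNA of whole heart tissue from C57BL/6 mice 24 weeks old was sequenced from 4 *Rnaseh1* knockout and 4 wild type animals. In the knockout, exon 2 of a floxed *Rnaseh1* had been removed by Cre under the muscle creatine kinase promoter (*Ckmm-cre*), which is active in heart and skeletal muscle, so that other cells of the heart keep the gene. The labels name the groups RNase H1-/- and RNase H1+/+, the second also as wild type, while the study describes the controls of its conditional knockouts as floxed mice without Cre, so that an effect of Cre and the loss of RNase H1 cannot be told apart. RNase H1 degrades RNA that is paired with DNA and is needed for the replication of mtDNA, and the comparison asks what its loss does to the heart transcriptome.

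The libraries held 27429878 to 30505752 read pairs in the knockout and 31810103 to 40715847 in wild type. Transcripts of mtDNA took 9.46 to 12.3% of the pairs in the knockout and 60.2 to 62.6% in wild type, which left 24835342 to 27146119 pairs on nuclear genes in the knockout and 11896021 to 16213429 in wild type. A read pair was therefore worth 0.630 to 0.696 normalised counts in the knockout and 1.23 to 1.73 in wild type, and a nuclear gene was sampled more deeply in every knockout library than in any wild type library. *Rnaseh1* itself had 182, 145, 166 and 166 normalised counts in the 4 knockout libraries and 129, 144, 158 and 129 in the 4 wild type libraries, a log2 difference of 0.23 ± 0.12 (SE, adjusted p = 0.114, limma-trend with Benjamini-Hochberg adjustment). The level of *Rnaseh1* was thus not lower in the libraries labelled knockout, and it gives no check of these labels. Counts were made over the whole gene, so this value does not test the loss of exon 2. Knockout libraries 1 and 2 were alike, with a chi-square of 7.46 per gene between them, whereas the other pairs of knockout libraries stood between 22.7 and 68.5 and pairs of wild type libraries between 3.46 and 5.02. Cardiomyocyte markers were present in all 8 libraries, and 9 of the 10 were lower in the knockout, as described further below.

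All 5 genes were abundant enough in wild type to be counted with ease, and none of their knockout libraries came near any wild type library. The 5 genes passed the filter on low values only through the wild type libraries, so that their separation was fixed by the choice. For orientation, 28.4% of the 17046 tested genes were lower in the knockout at an adjusted p under 0.05, 30.7% were higher, and 26.5% were lower without any overlap between the libraries of both groups. The median log2 difference, knockout minus wild type, was -5.72 over the 5 genes and 0.02 over all tested genes. Differences in log2 are of normalised counts after a pseudocount of 1 and understate the change of genes with few reads.

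*Lingo3* (ENSMUSG00000051067) lies on the minus strand of chromosome 10, from 80832801 to 80844039 (GRCm38), and its longest transcript has 2 exons. It had 12.5, 10.8, 4.56 and 4.41 normalised counts in knockout libraries 1 to 4, against 409, 412, 459 and 544 in wild type libraries 1 to 4. The groups did not overlap, and knockout libraries 1 and 2 kept more of the transcript than knockout libraries 3 and 4. The mean was 8.07 ± 4.20 in the knockout and 456 ± 63.0 in wild type (SD, n = 4 each), a log2 difference of -5.77. Pooled over libraries, 48 read pairs remained in the knockout against 1218 in wild type, which after normalisation is 1.76% of the wild type level (95% exact interval 1.29 to 2.35%). Intervals of this kind describe counting error alone, because the reads were pooled and differences between animals are left out. Copies made by PCR are not separate molecules and would make such intervals too narrow even for counting error.

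*Smco1* (ENSMUSG00000046345) is a short gene of 3 exons on the plus strand of chromosome 16, from 32271468 to 32274781. It had 8.35, 6.06, 11.7 and 3.15 normalised counts in knockout libraries 1 to 4, against 298, 343, 281 and 330 in wild type libraries 1 to 4. Its wild type libraries were the most even of the 5 genes, with a ratio of 1.22 between the highest and the lowest, while knockout library 3 held the most and knockout library 4 the least. The mean was 7.32 ± 3.63 in the knockout and 313 ± 28.3 in wild type (SD, n = 4 each), a log2 difference of -5.35, and the 44 knockout read pairs against 849 in wild type amount to 2.32% of the wild type level (95% exact interval 1.67 to 3.14%).

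*Rp1* (ENSMUSG00000025900), on the minus strand of chromosome 1 from 3999557 to 4409241, is the longest of the 5 genes, with 12311 exonic bases spread over 409.7 kb. It had 2.78, 5.38, 9.77 and 1.26 normalised counts in knockout libraries 1 to 4, made of 4, 8, 15 and 2 read pairs. In wild type libraries 1 to 4 it had 204, 425, 233 and 223. Wild type library 2 stood apart from the other wild type libraries, and even the highest knockout library was 20.9 times below the lowest wild type library. The mean was 4.80 ± 3.73 in the knockout and 271 ± 103 in wild type (SD, n = 4 each), a log2 difference of -5.72, with 1.70% of the wild type level left (95% exact interval 1.13 to 2.47%).

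*Lmntd1* (ENSMUSG00000054966) spans 249.2 kb of the minus strand of chromosome 6, from 145365134 to 145614319, and has 11 exons in its longest transcript. It had 15.3, 6.06, 3.26 and 2.52 normalised counts in knockout libraries 1 to 4, against 296, 304, 290 and 218 in wild type libraries 1 to 4. Knockout library 1 held 22 of the 40 knockout read pairs, and wild type library 4 was below the other wild type libraries. The mean was 6.79 ± 5.88 in the knockout and 277 ± 40.1 in wild type (SD, n = 4 each), a log2 difference of -5.42. Of the wild type level, 2.36% was left (95% exact interval 1.67 to 3.24%), and the gap between the highest knockout and the lowest wild type library, 14.2-fold, was the narrowest of the 5 genes.

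*Uckl1os* (ENSMUSG00000010492), an antisense RNA gene with 7 annotated transcripts on the plus strand of chromosome 2 from 181578480 to 181585170, was nearest to complete loss. Its 4 knockout libraries held 3, 1, 1 and 2 read pairs, that is 2.09, 0.673, 0.652 and 1.26 normalised counts. In wild type libraries 1 to 4 it had 93.2, 143, 134 and 138 normalised counts. Wild type library 1 was the lowest of the wild type libraries and still 44.6 times above the highest knockout library. The mean was 1.17 ± 0.675 in the knockout and 127 ± 22.9 in wild type (SD, n = 4 each), a log2 difference of -5.91, and 0.908% of the wild type level was left (95% exact interval 0.362 to 1.89%). With so few knockout reads the log2 difference depends on how they are treated, being -4.66 with a pseudocount of 4 and -6.65 in edgeR.

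**Figure D1:**
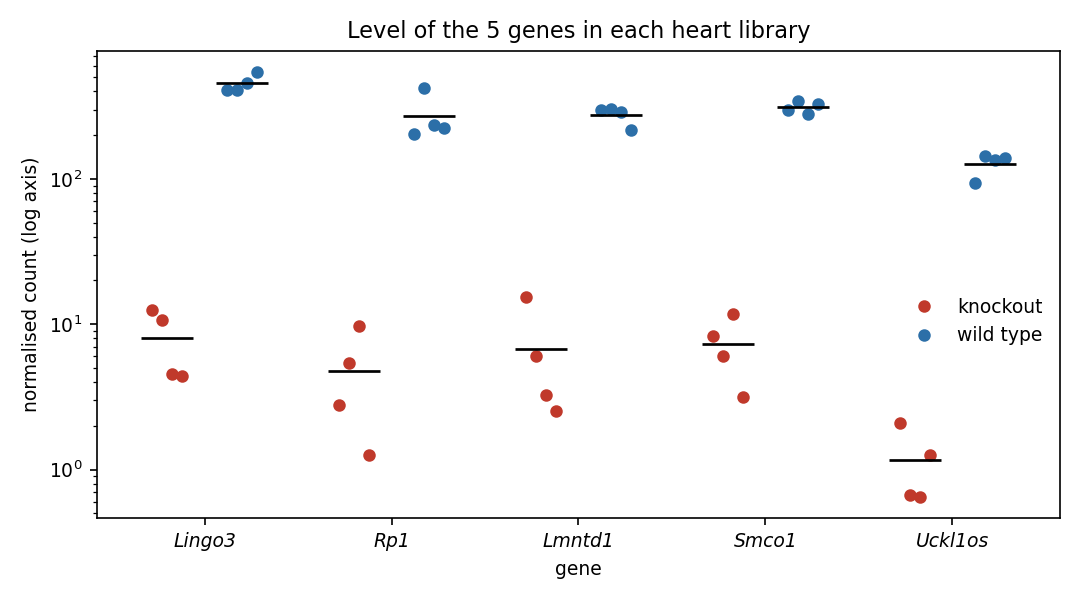
Normalised count of each of the 5 genes (log axis) in every library, knockout libraries to the left of wild type libraries, replicates 1 to 4 from left to right in each group and a horizontal line at the group mean. Knockout libraries lie between 0.652 and 15.3, and wild type libraries between 93.2 and 544.

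Reads were counted by strand, so that the reads of *Uckl1os* are told apart from those of *Uckl1*, which runs on the opposite strand over part of the same sequence. For the other 4 genes the deposited counts give one value per gene, and transcripts of a gene are not separated.

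In wild type hearts these are genes of the middle range. Ranked by mean normalised count among the 27354 genes with a read in wild type, *Lingo3* was number 6317, *Smco1* 7759, *Lmntd1* 8197, *Rp1* 8266 and *Uckl1os* 10561, which places them between the 61.4th and the 76.9th percentile. Levels of different genes can be compared only per length, and per kilobase of exons the order changed. *Smco1* then had the highest wild type level, 222 normalised counts per kb (number 3277 of 27325), followed by *Lingo3* with 128 (5540), *Uckl1os* with 50.4 (9915), *Lmntd1* with 35.8 (11349) and *Rp1* with 22.0 (13256). In this order *Uckl1os* and *Lmntd1* overlapped between their wild type libraries, as did *Lmntd1* and *Rp1*, while *Smco1* and *Lingo3* stood clear of each other and of the rest. In the knockout the 5 genes were ranked between 17437 and 22913 of the 30226 genes with a read there, by mean normalised count.

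Ordered by log2 difference over the 17046 tested genes, *Uckl1os* was number 4 from the largest fall, *Lingo3* 5, *Rp1* 6, *Lmntd1* 11 and *Smco1* 14. Among the genes ahead of them were *Ces1d*, a carboxylesterase that hydrolyses lipids, with a log2 difference of -6.10, and the noncoding RNA *Gm10635* with -5.97. Between *Rp1* and *Lmntd1* came *Gm34302* with -5.64, *Cacng6* and *Gm45909*, which had only 3 and 2 knockout read pairs against 176 and 170 in wild type, and *mt-Cytb* of mtDNA with -5.43. *2310016D03Rik*, with 0 knockout and 115 wild type read pairs, and *mt-Nd5* with -5.37 stood between *Lmntd1* and *Smco1*, and *Gm26862* followed just after *Smco1* with -5.34. Of these first 14 places, 8 belonged to protein-coding nuclear genes, 4 of them among the genes described here, 4 to noncoding or unclassified transcripts and 2 to mtDNA. The choice of the 5 was thus not a plain cut of the list, and *Smco1* and *Gm26862* differed by less than the spread of either.

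**Figure D2:**
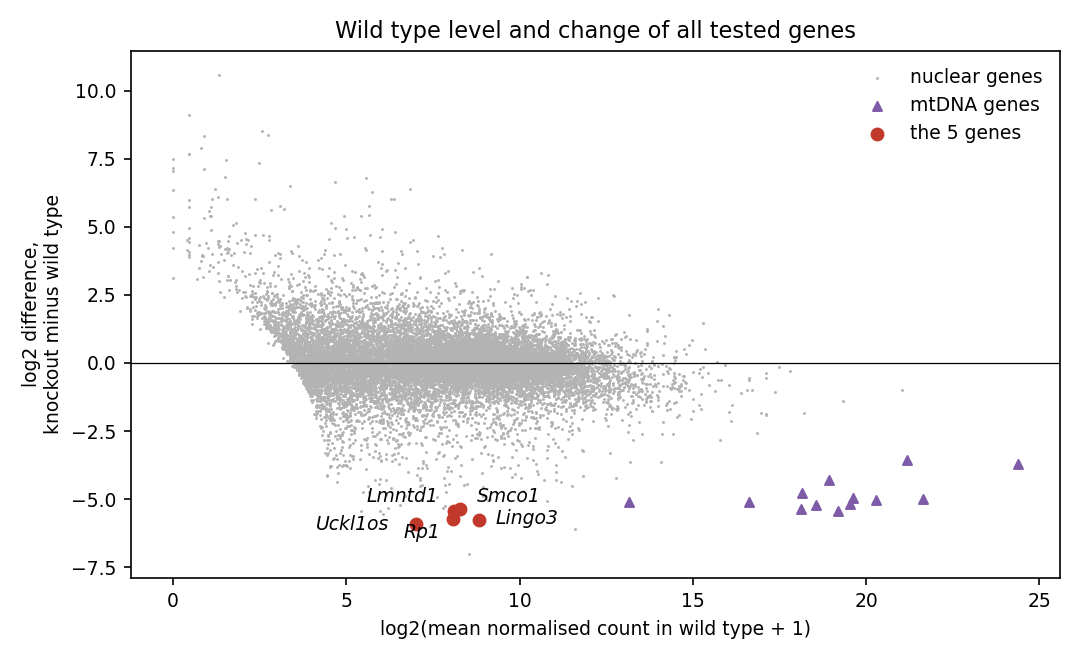
Log2 difference, knockout minus wild type, against the mean wild type level on a log2 scale for the 17046 tested genes, with nuclear genes as grey dots, mtDNA genes as triangles and the 5 genes as red circles. The 5 genes lie between -5.91 and -5.35 at the lower edge of the nuclear genes, at the depth of the mtDNA genes *mt-Cytb* (-5.43) and *mt-Nd5* (-5.37) but at far lower wild type levels.

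The 4 genes with a promoter window in the RefSeq table are *Lingo3*, *Lmntd1*, *Smco1* and *Uckl1os*. Each window runs from 250 bases before to 50 bases after a transcription start in GRCm38.p6. The windows of *Lingo3*, *Smco1* and *Uckl1os*, whose starts lie 0, 12 and 0 bases from the gene start used for counting, are shown because these genes had the highest wild type levels per length and to let their base composition be compared. The start of the *Lmntd1* window lies 179394 bases inside the annotated gene, and its letters are not shown. Each sequence is given in the direction of transcription, and capitals mark matches to the E-box CANNTG, a motif bound by basic helix-loop-helix factors. The windows are chr10:80843990-80844289 (minus strand), chr16:32271230-32271529 (plus strand) and chr2:181578230-181578529 (plus strand).
Lingo3: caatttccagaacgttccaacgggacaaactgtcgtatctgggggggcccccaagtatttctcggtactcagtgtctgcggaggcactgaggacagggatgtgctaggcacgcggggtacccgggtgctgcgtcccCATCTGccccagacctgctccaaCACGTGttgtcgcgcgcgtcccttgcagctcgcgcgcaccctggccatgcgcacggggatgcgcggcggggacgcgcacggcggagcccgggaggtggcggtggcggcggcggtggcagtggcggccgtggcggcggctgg
Smco1: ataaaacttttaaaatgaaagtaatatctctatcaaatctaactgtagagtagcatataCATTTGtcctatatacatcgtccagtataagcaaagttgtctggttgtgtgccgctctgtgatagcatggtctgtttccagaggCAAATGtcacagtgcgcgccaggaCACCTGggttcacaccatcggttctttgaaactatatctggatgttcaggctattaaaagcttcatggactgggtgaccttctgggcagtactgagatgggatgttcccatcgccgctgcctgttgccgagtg
Uckl1os: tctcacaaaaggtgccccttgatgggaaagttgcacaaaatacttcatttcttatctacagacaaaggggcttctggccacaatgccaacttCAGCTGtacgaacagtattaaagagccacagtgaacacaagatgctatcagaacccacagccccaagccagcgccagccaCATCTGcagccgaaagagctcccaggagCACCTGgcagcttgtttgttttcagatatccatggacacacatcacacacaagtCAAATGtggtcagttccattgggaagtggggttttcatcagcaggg

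The 3 windows differ in composition. That of *Lingo3* is rich in G and C, at 69.7%, and holds 35 CpG dinucleotides, where the median over 32851 windows is 52.7% and 7 CpG and the 90th percentile 69.7% and 31 CpG. Those of *Smco1* and *Uckl1os* have 44.3 and 48.7% G and C with 8 and 3 CpG. E-boxes, searched on both strands, number 2 in the window of *Lingo3*, 3 in *Lmntd1*, 3 in *Smco1* and 4 in *Uckl1os*, and 72.3% of all windows hold at least 1, with 1.39 on average. The nuclear receptor half-site AAGGTCA occurs once, in the window of *Smco1* from 9 to 3 bases before the start on the opposite strand, and 4.72% of all windows hold it. The GATA motif AGATAA occurs once in *Uckl1os* (11.2% of windows) and the TEAD motif GGAATG once in *Lmntd1* (14.7%). Neither the MEF2 motif nor the CArG box, motifs of muscle promoters, was found in the 4 windows, and 0.557 and 1.63% of all windows hold them. No motif other than the E-box was shared by these windows, and a match of letters does not show binding.

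Within a genotype the 5 genes did not vary as one group. Deviations from the genotype means in log2 were compared over the 8 libraries, where both genes of a pair come from the same library, and a correlation over both genotypes was not computed because the groups form separate clusters. The 10 pairs had a median Pearson's r of 0.25, and 6 of the 10 were above 0. The strongest pair was *Lingo3* with *Lmntd1* (r = 0.80, Spearman's coefficient 0.71), followed by *Rp1* with *Smco1* (r = 0.79, Spearman's coefficient 0.45), and the other 8 pairs lay between -0.37 and 0.49. The first pair moved together in the 4 knockout libraries (r = 0.91) and in opposite directions in the 4 wild type libraries (r = -0.95), whereas *Rp1* and *Smco1* had 0.83 in the knockout and 0.66 in wild type. Knockout library 4 was the lowest knockout library for *Lingo3*, *Rp1*, *Lmntd1* and *Smco1*, though not for *Uckl1os*, and without it the median r was -0.16. With 4 libraries a group and 2 to 22 read pairs behind the knockout values of *Lingo3*, *Rp1*, *Lmntd1* and *Smco1*, these correlations are descriptions only.

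Some other measures also split the knockout libraries into 1 and 2 against 3 and 4, in both directions, and others did not. Knockout libraries 3 and 4 were not alike over all genes, with a chi-square of 22.7 per gene between them, against 26.15 between 2 and 4. *Lingo3* and *Lmntd1* were higher in knockout libraries 1 and 2 than in 3 and 4. The summed level of the 10 cardiomyocyte markers was 635482 and 633170 normalised counts in knockout libraries 1 and 2 and 542437 and 527371 in knockout libraries 3 and 4. The summed level of the 8 skeletal muscle markers was 42547 and 39261 in knockout libraries 1 and 2 and 21593 and 21540 in knockout libraries 3 and 4. This sum is almost wholly *Acta1* and *Ckm*, with knockout means of 21243 and 9933 normalised counts. *Tnnt3* had a knockout mean of 42.9, and the fast myosin genes were near 0, so the sum is no measure of skeletal muscle content. The summed level of the 3 erythroid markers ran the other way, at 5261 and 5710.5 in knockout libraries 1 and 2 and 18517 and 16308 in knockout libraries 3 and 4. The summed level of the macrophage markers did not follow this split, at 8851, 9849, 8659 and 10878 in knockout libraries 1 to 4. *Rp1* and *Smco1* did not follow this split, being highest in knockout library 3, and neither did *Uckl1os*, whose order was 1, 4, 2 and 3 from the highest to the lowest. The split was noticed after the values were seen, and its part in the levels was not tested.

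**Figure D3:**
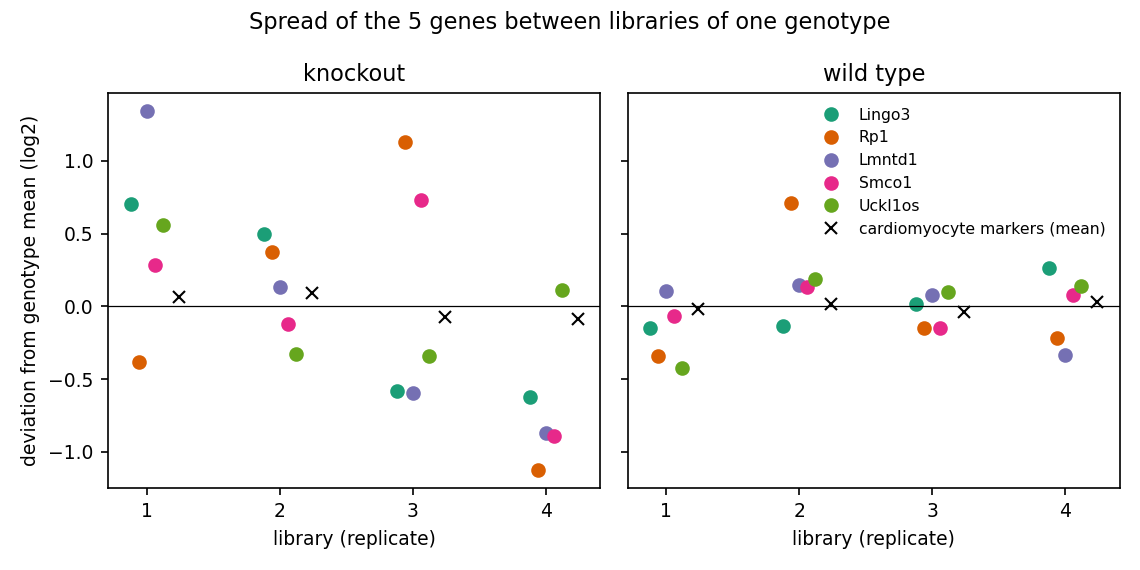
Deviation of each of the 5 genes from its genotype mean (log2 normalised count) in knockout libraries 1 to 4 on the left and wild type libraries 1 to 4 on the right, with crosses for the mean over the cardiomyocyte markers. Knockout deviations span over 1 log2 unit in both directions, the crosses stay near 0, and *Rp1* in wild type library 2 is the farthest point on the right.

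By Euclidean distance between log2 profiles over the 8 libraries, each taken relative to the gene's wild type mean, the tested genes most like these were themselves among the largest falls. *Lingo3* was nearest to *Gm34302* (distance 0.74), *Ces1d* (0.82) and *Gm10635* (1.17). *Uckl1os* was nearest to *Cacng6* (0.86), a gene for a gamma subunit of calcium channels, then to *Ces1d* (1.07) and *Gm34302* (1.24). *Smco1* stood closest to 3 transcripts of mtDNA, *mt-Nd5* (1.08), *mt-Cytb* (1.10) and the joint transcript of *mt-Atp8* and *mt-Atp6* (1.14). *Rp1* was nearest to *Smco1* (1.40) and then to *mt-Cytb* (1.78) and *mt-Nd5* (1.79), and *Lmntd1* to *Lingo3* (1.27), *Gm34302* (1.51) and *Cacng6* (1.59). The distances are dominated by the difference between the genotypes, which also chose the genes.

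The tested genes next to them on the chromosomes did not share falls of this size. Such a contrast was all but fixed in advance, because the 5 genes were chosen among the largest falls of all tested genes. Of 28 neighbours, that is the 3 nearest tested genes on each side of each gene (*Rp1* has only 1 on its left), 5 were lower in the knockout, 6 were higher and 17 did not pass the test, with a median log2 difference of 0.00. The lowest of them stood at -1.81, far above the 5 genes. These shares, 5 and 6 of 28, lie below the 28.4 and 30.7% of all tested genes. When libraries were scaled to equal totals of all genes, mtDNA included, which shifts the median gene by 1.44 in log2, none of the 28 was lower and 27 were higher, and with equal totals of nuclear genes (a shift of 0.23) 3 were lower.

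*Oaz1*, an inhibitor of ornithine decarboxylase that lies 3.51 kb from *Lingo3*, had 1990 ± 164 normalised counts in the knockout and 3353 ± 85.7 in wild type (SD, n = 4 each), a log2 difference of -0.76 ± 0.07 (SE, adjusted p = 3.46e-06, limma-trend), which turned to 0.69 with equal totals of all genes. *Lsm7*, of the splicing and RNA decay machinery, lies 8.78 kb to the other side, with a log2 difference of 0.09 ± 0.13 (adjusted p = 0.557) that passed the test in both other scalings. *Jsrp1*, a gene of the junctional sarcoplasmic reticulum 19.3 kb from *Lingo3*, rose to 21.5 ± 6.08 normalised counts in the knockout, against 3.02 ± 2.15 in wild type, a log2 difference of 2.59 ± 0.43 (adjusted p = 0.000428). Its libraries ranged from 15.1 to 27.6 in the knockout and from 1.23 to 6.01 in wild type. A read pair was worth 1.23 to 1.73 normalised counts in wild type, so the wild type values rest on very few read pairs. *Jsrp1* passed the filter on low values only through the knockout libraries, so that the separation of its groups was partly fixed by the filter.

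Around *Rp1* the nearest tested genes were far, with *Xkr4* at 328 kb and *Sox17*, an endothelial transcription factor, at 81.7 kb. *Xkr4* had a log2 difference of 0.99 ± 0.53 (adjusted p = 0.13, limma-trend, and 0.0141 without knockout library 3, the lowest knockout library for it). *Sox17* was higher in the knockout by 0.84 ± 0.19 (adjusted p = 0.00278). Beside *Lmntd1*, neither the ribosomal pseudogene *Rps25-ps1* (-0.34 ± 0.32, adjusted p = 0.391) nor *Rassf8* (-0.17 ± 0.08, adjusted p = 0.0956, and 0.0387 without wild type library 1) passed the test, and both turned positive with equal totals of all genes. *Sspn*, whose product sarcospan belongs to the dystrophin complex, lies 317 kb from *Lmntd1* and fell to 1993 ± 153 normalised counts in the knockout, against 4493 ± 166 in wild type, a log2 difference of -1.17 ± 0.06 (adjusted p = 1.24e-07) that became 0.27 with equal totals of all genes.

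The nearest tested genes beside *Smco1* were *Rnf168*, a ubiquitin ligase of the DNA damage response that begins 2.68 kb downstream, and *Wdr53* at 14.4 kb. *Rnf168* had a log2 difference of -0.10 ± 0.11 (adjusted p = 0.431) and *Wdr53* of -0.03 ± 0.17 (adjusted p = 0.876), and the sign of both flipped with either other scaling. *Gm25848*, a small nucleolar RNA gene 27.6 kb away, had a log2 difference of -1.81 ± 0.23 (adjusted p = 5.9e-05), a call that did not hold with equal totals of all genes (-0.40, adjusted p = 0.123).

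*Uckl1os* overlaps 2 tested genes of the opposite strand, and neither followed it. *Uckl1*, a uridine kinase-like gene, had 945, 861, 845 and 986 normalised counts in knockout libraries 1 to 4 and 735, 771, 783 and 810 in wild type libraries 1 to 4. Every knockout library was above every wild type library, and the log2 difference was 0.23 ± 0.07 (SE, adjusted p = 0.0174), which missed the threshold without knockout library 4 (adjusted p = 0.055) or wild type library 1 (0.0516). *Zfp512b*, a zinc finger gene, had 538, 569, 622 and 584 normalised counts in the knockout and 749, 717, 706 and 680 in wild type, a log2 difference of -0.30 ± 0.07 (adjusted p = 0.00337). With equal totals of nuclear genes this was -0.07 (adjusted p = 0.398), and with equal totals of all genes it reversed to 1.14. Among the remaining neighbours of *Uckl1os*, *Samd10* was the largest change, higher by 1.36 ± 0.27 (adjusted p = 0.00136).

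**Figure D4:**
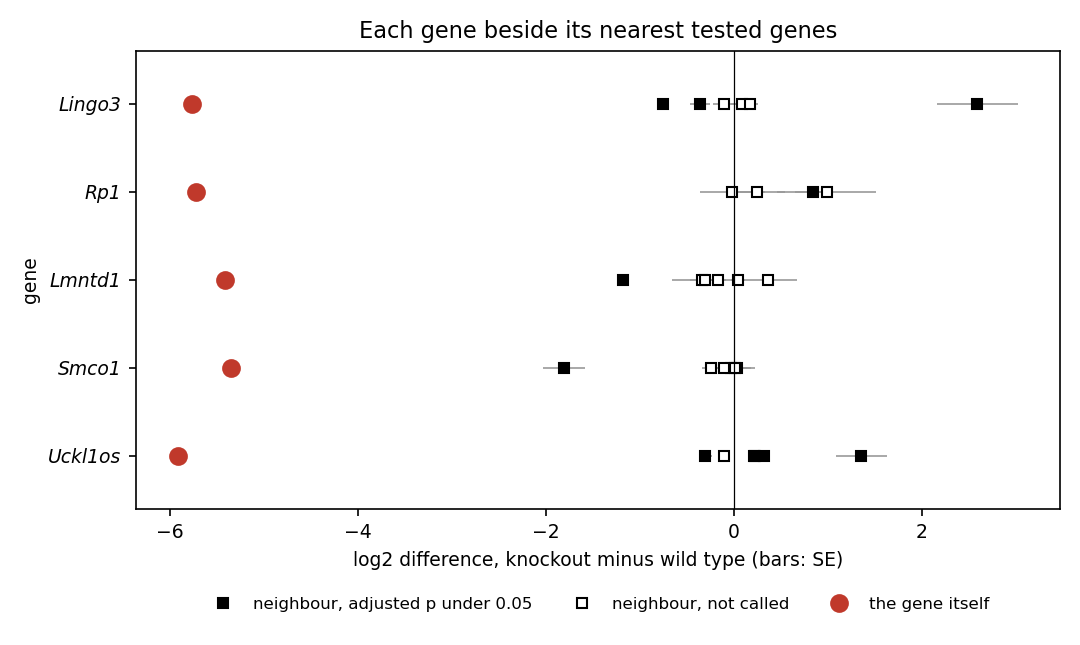
Log2 difference, knockout minus wild type, of each of the 5 genes (red circles) and of its nearest tested genes (squares, filled where the adjusted p is under 0.05, bars for the SE), 1 gene per row. The circles lie between -5.91 and -5.35, and the 28 squares between -1.81 and 2.59, of which 5 were lower and 6 higher (0 and 27 with equal totals of all genes).

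Relatives of the 5 genes by name, domain or pathway numbered 33, of which 22 could be tested. In the knockout 6 were lower, 10 were higher and 6 did not pass, with a median log2 difference of 0.41, against 28.4 and 30.7% of all tested genes. With equal totals of all genes, 0 were lower and 17 higher.

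Among partners of the LINGO family in Nogo receptor signalling, *Rtn4*, which encodes the Nogo protein of the endoplasmic reticulum, moved most. It had 15673, 15479, 17388 and 19117 normalised counts in the knockout and 1837, 1848, 1743 and 1770 in wild type, so that the groups stood far apart, with a log2 difference of 3.23 ± 0.07 (SE, adjusted p = 3.86e-10). The receptor gene *Rtn4r*, the co-receptor gene *Tnfrsf19* and *Lingo1* were lower in the knockout, with log2 differences of -1.43 ± 0.38 (adjusted p = 0.00756), -0.73 ± 0.16 (0.00227) and -1.15 ± 0.31 (0.00871). Their wild type means were 55.6, 181 and 25.1 normalised counts, and with equal totals of all genes *Rtn4r* lost its call (-0.04) while *Tnfrsf19* and *Lingo1* turned to 0.70 and 0.20. *Rtn4rl1*, *Rtn4rl2* and *Ngfr* did not pass the test. *Lingo2* had no read in any library, and *Lingo4*, *Mag* and *Omg* were under the filter. *Lingo3* had the most read pairs of the LINGO genes in wild type hearts, 1218 against 70 for *Lingo1* and 5 for *Lingo4*. These read pairs were not divided by gene length either.

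Of the other doublecortin-domain genes, the kinases *Dclk1* and *Dclk3* were higher in the knockout, by 1.48 ± 0.14 (adjusted p = 8.53e-06) and 2.70 ± 0.32 (adjusted p = 4.19e-05). *Dcdc2b* was lower, with a log2 difference of -0.83 ± 0.29 (adjusted p = 0.0285), a call lost without wild type library 2 (adjusted p = 0.0526) or 3 (0.086) and with equal totals of nuclear genes (0.0934), and its value became 0.59 with equal totals of all genes. *Dclk2* did not pass the test. *Rp1l1*, the closest relative of *Rp1*, had 1 read pair in the knockout and 2 in wild type, and *Dcx*, *Dcdc2a* and *Dcdc2c* were also under the filter.

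The lamin gene *Lmna* was higher in the knockout, with 4793 ± 639 normalised counts against 2124 ± 133 in wild type (SD, n = 4 each), a log2 difference of 1.17 ± 0.09 (adjusted p = 1.67e-06), and *Lmnb1* and *Lmnb2* did not pass the test. *Lmntd2*, the namesake of *Lmntd1*, had 15 read pairs in the knockout and 0 in wild type, where a count of 0 allows up to 3 reads, and was not tested. *Smco4* was lower, with a log2 difference of -1.37 ± 0.36 (adjusted p = 0.00681) and turned to 0.06 with equal totals of all genes, while *Smco2* and *Smco3* were under the filter.

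All 7 genes of uridine and cytidine salvage passed the test, and 6 of them were higher in the knockout. *Uck2*, a kinase that phosphorylates uridine and cytidine, had 7442, 6390, 3617 and 4414 normalised counts in knockout libraries 1 to 4 and 934, 872, 885 and 936 in wild type libraries 1 to 4. All knockout libraries were above all wild type libraries, and knockout libraries 1 and 2 were again above 3 and 4. Its log2 difference was 2.53 ± 0.19 (adjusted p = 1.19e-06), beside 2.67 ± 0.17 (adjusted p = 4.07e-07) for the uridine phosphorylase *Upp1*. *Cda*, cytidine deaminase, was higher by 1.11, *Uprt* by 0.77, *Uck1* by 0.45 and *Uckl1* by 0.23. *Upp2*, the other uridine phosphorylase, was lower, with a log2 difference of -1.27 ± 0.26 (adjusted p = 0.00164) and turned to 0.14 with equal totals of all genes.

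*Rp1* is known from photoreceptors, and of 22 photoreceptor genes 3 (*Gngt1*, *Prph2*, *Cnga1*) had no read in the heart libraries, while 5 were above the filter. *Rom1*, *Abca4* and *Rpgr* had 762, 466 and 375 wild type read pairs, against 761 for *Rp1*. These read pairs were not divided by gene length, so they do not compare the levels of these genes. The photoreceptor transcription factors *Crx*, *Nrl* and *Nr2e3* had 0, 1 and 1 in the knockout and 1, 0 and 0 in wild type. The retinal lipid transporter *Abca4*, the disc protein gene *Rom1* and the arrestin gene *Sag* were lower in the knockout, with log2 differences of -2.09 ± 0.15 (adjusted p = 1.09e-06), -1.37 ± 0.11 (1.98e-06) and -0.84 ± 0.27 (0.0211). With equal totals of all genes *Rom1* and *Sag* turned to 0.07 and 0.50 while *Abca4* kept its call, and without knockout library 1 *Sag* had an adjusted p of 0.0607. *Cngb1* (0.51 ± 0.40, adjusted p = 0.295) and *Rpgr* (0.11 ± 0.11, adjusted p = 0.411) did not pass the test.

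Most cardiomyocyte markers and all 4 atrial markers moved along with the 5 genes, though by less. In bulk tissue, fewer cells of a type and less RNA per cell cannot be told apart. Of the 10 cardiomyocyte markers, 9 were lower in the knockout and 1 (*Nppa*) higher, with a median log2 difference of -1.61 that shrank to -0.16 with equal totals of all genes (5 lower, 3 higher), and their summed level was 527371 to 635482 normalised counts in the knockout and 1467264 to 1526330 in wild type. Relative to the mean log2 level of these markers in the same library, which fell by 1.27, the 5 genes differed by -4.65 (*Uckl1os*), -4.50 (*Lingo3*), -4.45 (*Rp1*), -4.15 (*Lmntd1*) and -4.08 (*Smco1*). All 4 atrial markers were lower (2 lower and 1 higher with equal totals of all genes), though unevenly. Their log2 differences ran from -4.22 for *Myl7* and -4.09 for *Sln* to only -0.40 for *Nr2f2*. The summed level of the atrial markers was 2130 to 4308 normalised counts in the knockout and 12139 to 20018 in wild type. Relative to the mean of the atrial markers, which fell by 2.52, the 5 genes differed by -2.83 (*Smco1*) to -3.39 (*Uckl1os*). That a difference remained beside either list was fixed by the choice of genes with the largest falls. The part of these cells in the levels of the 5 genes was not tested.

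The atrial sum was highest in wild type library 2, at 20018 normalised counts against 12139 to 14000.5 in the other wild type libraries, the same library in which *Rp1* had 425. Relative to the atrial markers the SD of *Rp1* over the wild type libraries was 0.25 in log2, and relative to the cardiomyocyte markers it was 0.47. Over the knockout libraries the order was reversed, with 1.08 and 0.97. For each of the other genes the wild type SD was larger relative to the atrial markers, such as 0.37 against 0.18 for *Lingo3*. In the knockout the atrial sum was highest in library 2 with 4308, where *Rp1* was highest in library 3. Whether a share of atrial tissue contributes to the level of *Rp1* was not tested.

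Markers of other cells went the other way or did not move together. Of 6 fibroblast markers, 4 were higher, and the summed level was 56421 to 74864 normalised counts in the knockout and 22116 to 23458 in wild type. Of 6 macrophage markers, 5 were higher, with sums of 8659 to 10878 in the knockout and 3246 to 3629 in wild type. Of 6 endothelial markers, 3 were lower, though all 6 were higher with equal totals of all genes, and sums were 20826 to 25304 in the knockout and 24743 to 27663 in wild type. Among 5 mural markers, 2 were higher and 2 lower (5 higher with equal totals of all genes). The erythroid, adipocyte and mesothelial lists had no called gene (3, 0 and 2 higher with equal totals of all genes), and no marker of T, B and NK cells could be tested. Of the skeletal muscle markers, the fast myosin genes were at or near 0, with *Myh4* at 0 and 5 read pairs and *Myh1* at 17 and 6 in knockout and wild type. *Acta1* (2.56) and *Tnnt3* (2.43) were higher and *Ckm* (-1.75) lower. *Tnnt3*, with 19 wild type read pairs, passed the filter only through the knockout libraries, so that its rise was partly fixed by the filter. Of the nerve markers, *Sox10* was lower and *Tubb3* was higher by 4.01, while with equal totals of all genes none of the 3 tested was lower and 2 were higher. The part of these shifts in the levels of the 5 genes was not tested.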

How the data were processed

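Heart RNA of 4 knockout and 4 wild type mice was measured by paired-end TruSeq sequencing. According to the study's methods and the submitters' processing notes, the authors aligned read pairs to mm10 with HISAT2 2.10, aligned mitochondrial pairs again with splicing off, and used featureCounts 1.6.3 with strand to count pairs for each gene. What they deposited is a normalised signal, gene counts divided by the DESeq2 1.18.1 size factor of each library (R 3.5.1). A second deposited sheet holds the authors' own fold changes and p-values, which were not used. Each value above 0 was a multiple of the worth of 1 read pair, and on division 100% of them were whole numbers to within 0.01. Of 54508 genes listed, 22980 had no read, and 17 lines after the gene block were not read. Gene models came from GENCODE M21 on GRCm38, which held 54458 of the identifiers, 53548 of them with the same start and end.

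Differences were tested with limma-trend (limma 3.58.1, R 4.3.3) after a pseudocount of 1 and a log2 transformation, with no term beside genotype, two-sided, over 17046 genes with a mean of at least 10, adjusted by Benjamini-Hochberg with a threshold of 0.05, and called 4839 genes lower and 5241 higher in the knockout. The fit was tested on simulated data. The planned log-scale test suited the unit, and a count test in edgeR 4.0.16 on the recovered read pairs called 4786 lower and 5237 higher. Other alternatives were the pseudocount, no filter, other scalings, a replicate block, DESeq2 1.42.0 and leaving out each library. Libraries of a group always differed by more than counting noise (chi-square of at least 3.46 per gene). The study gives 4 animals per group.

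The 5 genes, the lists and the tests were chosen with earlier results of these data known. Named beside the 5 genes are the 10 largest falls and those adjoining each of the 5, neighbours that overlap, are nearest or are called with a log2 difference of at least 1, called relatives, tested photoreceptor genes, up to 3 markers per list, the 3 most similar profiles per gene, and *Rnaseh1*, except a few genes that are not reported here. Promoter windows came from RefSeq, and 4 of the 5 genes matched.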

Additional observations from a re-analysis of the deposited data

Results flagged for a closer look

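A single wild type library lay apart from the other 3 in a pair of cases. *Rp1* had 425 normalised counts in wild type library 2, against 204 to 233 in the other wild type libraries, a gap of 0.869 of the whole range, which is beyond Dixon's limit for 4 samples. *Lmntd1* had 218 normalised counts in wild type library 4, against 290 to 304 in the others, a gap of 0.840 of the range. Chance places about 1 in 20 groups beyond this limit, and 108 groups of 4 were examined, of which these 2 exceeded it. Without wild type library 2 the log2 difference of *Rp1* was -5.49 in place of -5.72, and without wild type library 4 that of *Lmntd1* was -5.53 in place of -5.42.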

How the results depend on the processing

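The log2 difference of all 5 genes stayed negative under every alternative run. This was fixed by the choice of genes with the largest falls, since the largest scaling shift of the median gene was 1.44. Scaling to equal totals of all genes gave -4.40 for their median (-4.40 for *Lingo3*, -4.43 for *Rp1*, -4.09 for *Lmntd1*, -3.99 for *Smco1* and -4.79 for *Uckl1os*), and a pseudocount of 4 gave a median of -4.86. *Uckl1os* was -6.79 in DESeq2. Leaving out 1 library gave medians from -5.87 to -5.35, 4414 to 5030 genes lower and 4792 to 5474 higher in the knockout, 5 to 7 neighbours lower and 4 to 7 higher, 5 to 6 relatives lower and 9 to 13 higher, 2 to 3 photoreceptor genes lower, and a median within-genotype correlation from -0.16 to 0.46. With equal totals of all genes, 567 genes were lower and 14953 higher, 0 neighbours lower and 27 higher, 0 relatives lower and 17 higher, and 1 photoreceptor gene lower. With equal totals of nuclear genes, 3268 genes were lower and 7355 higher, and 3 neighbours lower. Equal totals of all genes turned *Oaz1* to 0.69, *Rps25-ps1* to 1.04, *Rassf8* to 1.27, *Sspn* to 0.27, *Wdr53* to 1.39, *Rnf168* to 1.34, *Zfp512b* to 1.14, *Lingo1* to 0.20, *Tnfrsf19* to 0.70, *Dcdc2b* to 0.59, *Smco4* to 0.058, *Upp2* to 0.14, *Sag* to 0.50 and *Rom1* to 0.07. Equal nuclear totals turned *Rassf8* to 0.060, *Wdr53* to 0.19 and *Rnf168* to 0.13, and *Wdr53* ranged from -0.15 to 0.049 when 1 library was left out, being positive without knockout library 2 or wild type library 4 (0.045). The shifts with equal totals of all genes follow from the scaling itself, since mtDNA took most read pairs in wild type. Same-numbered libraries did not pair (r from -0.07 to 0.04), and with the replicate number as a block 4645 genes were lower and 5076 higher, while *Dcdc2b* had an adjusted p of 0.0612. Without the filter *Sag* had 0.066. Knockout values of the 5 genes rest on 1 to 22 read pairs per library, which limits any comparison between knockout libraries.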
